A study of Mus musculus with 18 samples.

Results

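Cdh5, Flt1, Kdr, Tie1, Tek, Eng and Pecam1 encode surface receptors and adhesion molecules by which endothelial cells, the lining of blood vessels, are recognised. They were chosen by name as a set of 7 genes, out of 17818 gene symbols in the embryonic stem (ES) cell table and 17813 in the fibroblast table, and all 7 were present in both tables. The study asked what loss of TRIM28 (also called KAP1) does to transcription and chromatin in mouse cells. TRIM28 represses transcription where KRAB zinc finger proteins tether it, together with methyltransferases that lay down H3K9me3, a mark of silent chromatin. The RNA libraries compared here were Trim28-knockout ES3 cells taken 4 days after switching on a 4-hydroxytamoxifen (4-OHT) inducible Cre, wild-type ES3 cells cultured for 4 days, knockout mouse embryonic fibroblasts (MEFs) taken 5 days after the same induction, and wild-type MEFs cultured for 5 days. All were of the C57BL/6 strain, and the culture protocol given in the labels is that of ES cells in serum with leukaemia inhibitory factor. Duplicate cultures were pooled before RNA extraction, so each group was 1 library, no spread between replicates was available and no difference could be tested. H3K9me3 regions and KAP1 peaks came from ES3 cells alone, as 6 deposited lists with 1 call per condition.

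In vessels, the ligand VEGF binds the receptor tyrosine kinases encoded by Kdr and Flt1. Kdr (VEGFR2) carries most of the growth signal and marks the mesoderm from which blood and endothelium arise, while Flt1 (VEGFR1) binds VEGF tightly, signals weakly and is also made by trophoblast. Angiopoietins bind the receptor encoded by Tek (Tie2), and Tie1 is its relative with no well-established ligand of its own. Eng (endoglin) is a co-receptor for ligands of the TGF-beta and BMP family. Cdh5 (VE-cadherin) holds neighbouring endothelial cells together at adherens junctions, and Pecam1 (CD31) is an adhesion molecule of endothelial junctions and blood cells that is also found on undifferentiated mouse ES cells.

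Reference promoter sequences were matched for 5 of the 7 genes. They are shown because genes of the same receptor family (Flt1 and Kdr, Tie1 and Tek) differed in level and in ratio, so that their promoters can be read side by side. Each run is the 250 bases before the gene start, 5′ to 3′ on the gene's strand, from RefSeq on build GRCm38.p6, with the ETS factor core GGAA, or TTCC where it lies on the other strand, in capitals. They lie at chr5:147726012-147726261 (minus strand), chr5:75978456-75978705 (minus strand), chr4:118489850-118490099 (minus strand), chr4:94739039-94739288 (plus strand) and chr2:32646345-32646594 (plus strand).
Flt1: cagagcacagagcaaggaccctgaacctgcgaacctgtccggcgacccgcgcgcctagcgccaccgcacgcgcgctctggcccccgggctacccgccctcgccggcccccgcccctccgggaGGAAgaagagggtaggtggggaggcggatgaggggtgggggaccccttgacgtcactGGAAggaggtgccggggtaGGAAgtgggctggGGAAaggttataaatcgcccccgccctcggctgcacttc
Kdr: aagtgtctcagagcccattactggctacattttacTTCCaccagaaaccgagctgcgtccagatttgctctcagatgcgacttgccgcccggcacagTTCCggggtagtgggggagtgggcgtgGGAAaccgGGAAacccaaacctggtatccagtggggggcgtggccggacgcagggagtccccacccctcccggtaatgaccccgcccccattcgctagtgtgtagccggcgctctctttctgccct
Tie1: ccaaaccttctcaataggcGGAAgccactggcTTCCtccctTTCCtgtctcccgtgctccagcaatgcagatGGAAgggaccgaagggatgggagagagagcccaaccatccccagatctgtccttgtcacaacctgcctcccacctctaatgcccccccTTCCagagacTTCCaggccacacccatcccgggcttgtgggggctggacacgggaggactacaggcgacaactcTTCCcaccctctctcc
Tek: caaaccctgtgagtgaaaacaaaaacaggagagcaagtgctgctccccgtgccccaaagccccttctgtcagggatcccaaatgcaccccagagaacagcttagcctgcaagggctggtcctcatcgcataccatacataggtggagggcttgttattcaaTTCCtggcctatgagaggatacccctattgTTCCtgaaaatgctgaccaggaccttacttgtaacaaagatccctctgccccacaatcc
Eng: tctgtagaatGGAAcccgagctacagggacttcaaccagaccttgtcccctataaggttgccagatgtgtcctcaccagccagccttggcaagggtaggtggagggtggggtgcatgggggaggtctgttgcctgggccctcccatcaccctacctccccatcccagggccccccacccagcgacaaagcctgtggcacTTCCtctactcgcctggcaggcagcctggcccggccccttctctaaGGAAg
The core was found 4 times in Flt1, 4 times in Kdr, 7 times in Tie1, 2 times in Tek and 3 times in Eng. It is a common motif: 93.4% of 27025 promoters of the same length hold it, with a median of 3 matches. The longer form AGGAAG, which contains the core, occurred 2 times in Flt1, 2 times in Eng and 1 time in Tie1, and 29.2% of promoters hold it. The windows of Kdr and Tek held none of these longer letters. The TATA box letters TATAAA occurred 1 time, in Flt1, against 13% of promoters. None of the 5 windows held AGATAA, a form of the letters read by GATA factors, found in 10.3% of promoters. Other forms of the GATA motif were not searched. None held the E-box CACGTG, found in 6.05%. Both strands were searched for each motif. CG dinucleotides numbered 23 in Flt1, 16 in Kdr, 6 in Tie1, 4 in Eng and 2 in Tek, beside a median of 6 over all promoters. A match describes the letters in the window and does not show that a factor binds there.

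The knockout was visible in the targeted gene. Trim28 stood at 37.2 RPKM (reads scaled to transcript length and library size, as deposited) in knockout ES3 cells against 1051 RPKM in wild-type ES3 cells, and at 5.84 RPKM in knockout MEFs against 62.8 RPKM in wild-type MEFs. The 10 pluripotency markers summed to 753 RPKM in knockout and 1528 RPKM in wild-type ES3 cells. In knockout and wild-type MEFs they summed to 32.8 and 42.7 RPKM, of which Klf4 made up 28.2 and 38.2 RPKM. The 12 mural cell and fibroblast markers summed to 164.9 RPKM in knockout and 15.4 RPKM in wild-type ES3 cells, and to 14991 and 11993 RPKM in knockout and wild-type MEFs. Library read totals are not in the tables, so the counting error of a low value is unknown.

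All 7 genes were expressed at low to moderate levels in knockout ES3 cells, while in wild type some of them were near the bottom of the scale. RPKM is a level per length, so genes can be set side by side. In knockout ES3 cells the order was Eng at 14.8 RPKM, Cdh5 at 6.56 RPKM, Pecam1 at 5.05 RPKM, Tek at 3.41 RPKM, Flt1 at 3.15 RPKM, Tie1 at 2.65 RPKM and Kdr at 1.15 RPKM. In wild-type ES3 cells Pecam1 was the highest at 9.28 RPKM, followed by Tek at 7.45 RPKM and Eng at 4.71 RPKM. Cdh5 at 0.173 RPKM, Flt1 at 0.0858 RPKM, Kdr at 0.0846 RPKM and Tie1 at 0.0595 RPKM were all far under 1 RPKM in wild type, the level from which a gene was called measured. With 1 library each, it cannot be said which neighbours in these orders differ. All 7 thus stood above 1 RPKM in the knockout library, against 3 of 7 in the wild-type library. Beside this, 10820 of all 17818 genes stood at 1 RPKM or more in wild type. In the knockout 35.9% of all genes lay below Kdr, the lowest of the 7. The 7 genes were chosen with earlier results of these data known, so these counts are descriptions.

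**Figure D1:**
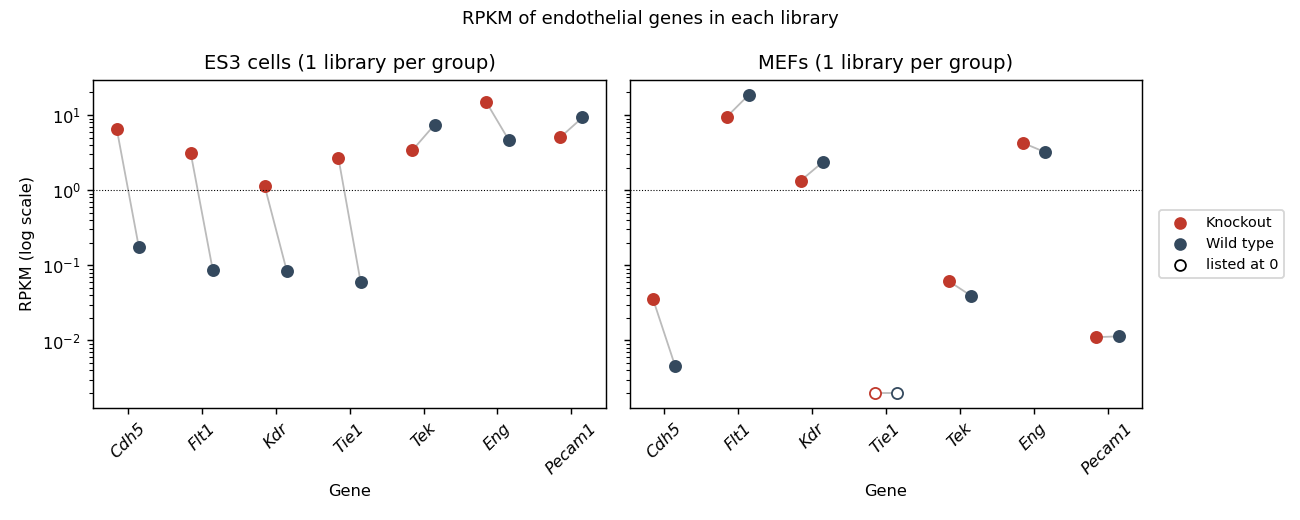
RPKM on a log scale of the 7 genes in ES3 cells (left panel) and MEFs (right panel), with knockout in red left of wild type in dark blue, 1 library per point; the dotted line is 1 RPKM and open circles mark values listed at 0. In ES3 cells Cdh5, Flt1, Kdr and Tie1 lie above the line in the knockout and below it in wild type, whereas Tek and Pecam1 are lower in the knockout.

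Among the VEGF receptors, Flt1 (NM_010228; mm9 chromosome 5, 148373180 to 148537587, minus strand) had 3.15 RPKM in knockout ES3 cells against 0.0858 RPKM in wild type. Its log2 ratio of knockout to wild type, with a pseudocount of 1 RPKM added to both, was 1.94, higher than 97.0% of the 12024 measured ES3 genes. Kdr (NM_010612; chromosome 5, 76328852 to 76374483, minus strand) had 1.15 RPKM in the knockout against 0.0846 RPKM in wild type, a log2 ratio of 0.99 that lay just under 2-fold. Both receptors were thus higher in the knockout library, Flt1 past 2-fold and Kdr not. The pseudocount holds these ratios down: the plain quotients were 36.7 for Flt1 and 13.6 for Kdr. With 0.1 RPKM in its place Kdr had a log2 ratio of 2.76.

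The angiopoietin receptor pair had ratios of opposite sign. Tie1 (NM_011587; chromosome 4, 118143796 to 118162666, minus strand) had 2.65 RPKM in knockout ES3 cells against 0.0595 RPKM in wild type, a log2 ratio of 1.78 and the largest plain quotient of the 7 genes, 44.5. Tek (NM_013690; chromosome 4, 94405980 to 94541667, plus strand) had 3.41 RPKM in the knockout against 7.45 RPKM in wild type, or 45.7% of the wild-type value. With the pseudocount of 1 RPKM its log2 ratio was −0.94, just inside 2-fold, whereas the plain quotient of 0.457 was past it. The log2 ratio was lower than those of all but 3.69% of measured genes. The receptors of this pair stood close together in the knockout, whereas Tek was by far the more abundant in wild type.

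Eng (NM_007932; chromosome 2, 32502115 to 32538178, plus strand) had 14.8 RPKM in knockout ES3 cells against 4.71 RPKM in wild type, a log2 ratio of 1.47. Of the genes called at least 2-fold higher, it was the only one also above 1 RPKM in the wild-type library. The other 2 Eng transcripts, NM_001146348 and NM_001146350, had plain quotients of 3.17 and 3.16, close to the 3.14 of the transcript shown. They belong to the same gene, so they are not independent measurements.

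The adhesion genes also differed from each other. Cdh5 (NM_009868; chromosome 8, 106625599 to 106668401, plus strand) had 6.56 RPKM in knockout ES3 cells against 0.173 RPKM in wild type. Its log2 ratio of 2.69 was the largest of the 7 and higher than 98.8% of measured genes, and its plain quotient was 37.9. Pecam1 (NM_001032378; chromosome 11, 106515531 to 106611942, minus strand) had 5.05 RPKM in the knockout against 9.28 RPKM in wild type, 54.4% of the wild-type value and a log2 ratio of −0.77. The second Pecam1 transcript, NM_008816, gave 4.93 RPKM in the knockout and 9.17 RPKM in wild type. Of this pair Cdh5 was thus the higher in the knockout and Pecam1 in wild type.

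In all, 4 of the 7 genes (Cdh5, Flt1, Tie1 and Eng) were at least 2-fold higher in knockout ES3 cells, none was at least 2-fold lower, and the median log2 ratio was 1.47. Over all 12024 measured genes 12.5% were at least 2-fold higher and 3.18% at least 2-fold lower, with a median of 0.08. Cdh5, Flt1, Kdr and Tie1 were measured only through the knockout library, which favours a higher call for them, so the count is a description. The 7 genes were also chosen with earlier results of these data known, so no enrichment over all genes is read here. Set by wild type alone, all 4 of the genes that stood under 1 RPKM in wild-type ES3 cells reached 1 RPKM in the knockout, as did 17.2% of all 6998 genes under that level. Of the 3 genes at 1 RPKM or more in wild type, Eng was at least 2-fold higher, as were 8.32% of all 10820 such genes. The call of Tek turns on small changes: its log2 ratio was −1.11 with a pseudocount of 0.1 RPKM, −1.02 after centring on the median gene and −1.16 after centring within 20 bins of gene span, each at least 2-fold lower, where 3.93% of all genes were lower and 10.7% higher after span centring. In bulk RNA, fewer cells of a type and less RNA per cell cannot be told apart.

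Ratios past 2-fold in ES3 cells were also found in the lists for other cell types, mostly higher in some lists and lower or mixed in others. All 15 measured primitive endoderm markers, 9 of them measured only through the knockout, were at least 2-fold higher in knockout ES3 cells, with a list sum of 2171 RPKM in the knockout against 109.2 RPKM in wild type. The largest were Col4a2 (log2 ratio 6.07), Col4a1 (5.97), Srgn (5.75) and Gata4 (4.94). Of 8 measured trophoblast markers 6 were higher, 4 of these measured only through the knockout, and 1 was lower. The list sum was 384.7 RPKM in the knockout against 32.6 RPKM in wild type, led by the keratin genes Krt8 (5.12) and Krt18 (4.44) and followed by Cited1 (2.91) and Hand1 (2.63). Of 7 measured mural cell and fibroblast markers 5 were higher, 3 of these measured only through the knockout, and none was lower; Tagln (5.65), Col1a1 (2.94), Acta2 (2.40) and Col3a1 (1.16) had the largest ratios, and 4 were higher after span centring. Blood cell markers were mixed, with a list sum of 95.8 RPKM in the knockout against 176.2 RPKM in wild type. Laptm5 (65.0 against 149.6 RPKM) and Cd68 (25.1 against 23.1 RPKM) made up most of it. Of 5 measured, Runx1, measured only through the knockout, was higher (1.28) and Laptm5 was lower (−1.19). The pan-leukocyte gene Ptprc had 0.0107 RPKM in the knockout and was listed at 0 in wild type. Of 10 pluripotency markers 5 were lower and none higher, led by Nr0b1 (−4.42), Esrrb (−2.00), Sox2 (−1.94) and Nanog (−1.37). The part of these cell types in the values of the 7 genes was not tested.

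**Figure D2:**
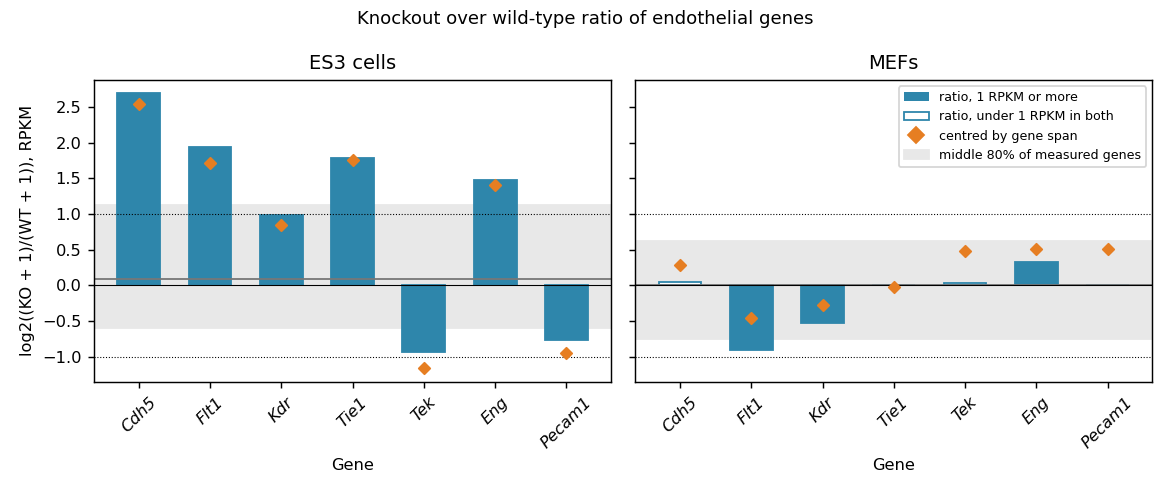
Log2 ratio of knockout to wild-type RPKM, each with 1 RPKM added, for the 7 genes in ES3 cells (left panel) and MEFs (right panel); filled bars are measured genes, open bars genes under 1 RPKM in both, orange diamonds the ratio centred by gene span, the grey band the middle 80% of measured genes, the grey line their median, and dotted lines mark 2-fold. In ES3 cells Cdh5, Flt1, Tie1 and Eng lie above the band and Tek and Pecam1 lie below it, whereas in MEFs Flt1 is the one gene below it.

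Other genes of the endothelial programme were mixed in ES3 cells. Of 19 endothelial and haemangioblast transcription factors 9 were measured, 3 of them only through the knockout. Of these 9, 4 were at least 2-fold higher (Sox17, Ets1, Sox7 and Gata2) and 1 lower (Klf2), and the median log2 ratio was 0.32. Sox17 had 14.8 RPKM in the knockout against 0.197 RPKM in wild type (3.72) and Sox7 had 12.3 against 2.21 RPKM (2.05); both SoxF factors also mark primitive endoderm. Ets1, an ETS factor of many cell types, had 5.70 RPKM in the knockout against 0.0761 RPKM in wild type (2.64), and Klf2, a flow-responsive factor that ES cells also express, had 43.2 against 106.1 RPKM (−1.28). The early regulators that are most closely tied to the lineage were under 1 RPKM in both libraries. Etv2 had 0.675 RPKM in the knockout and 0.770 RPKM in wild type, Tal1 had 0.466 and 0.574 RPKM, Erg 0.117 and 0.244 RPKM, and Fli1 0.109 and 0.0249 RPKM; these genes and Klf2 were picked after their values were seen.

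The ES3 table held 24 other endothelial surface and junction genes, of which 16 were measured, 4 of them only through the knockout and 2 only through wild type. In this list 8 were at least 2-fold higher and 2 lower, and the median log2 ratio was 0.92. Procr, the receptor for activated protein C, had 8.18 RPKM in the knockout against 0.819 RPKM in wild type (2.34). Ecscr had 6.48 against 1.05 RPKM (1.87), and Thbd (thrombomodulin), which parietal endoderm also makes, had 2.74 against 0.0621 RPKM (1.81). Ramp2, which pairs with the adrenomedullin receptor, had 5.23 against 1.06 RPKM (1.60). Calcrl, the receptor that Ramp2 pairs with, had 0.227 RPKM in the knockout and 0.0251 RPKM in wild type. The 2 lower genes were Vwf (von Willebrand factor), with 0.415 RPKM in the knockout against 2.24 RPKM in wild type (−1.19), and Plvap, with 1.70 against 4.62 RPKM (−1.06); Calcrl, Vwf and Plvap were picked after their values were seen.

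None of the 6 measured genes among the ligands, co-receptors and other receptors of the VEGF and angiopoietin pathways passed 2-fold in ES3 cells, 3 of them being measured only through the knockout, and their median log2 ratio was 0.46. Nrp1, a VEGF co-receptor, had 1.21 RPKM in the knockout against 0.172 RPKM in wild type (0.91). Flt4 (VEGFR3) had 2.01 against 0.697 RPKM (0.82), Vegfa had 2.55 against 1.01 RPKM (0.82), and Vegfc had 1.98 against 3.89 RPKM (−0.71). Among 13 measured partners of endoglin in TGF-beta and BMP signalling 4 were at least 2-fold higher and 0 lower, beside a median of 0.47. Those 4 were the receptor genes Tgfbr3 (1.82), Tgfbr2 (1.63), Tgfbr1 (1.16) and Bmpr2 (1.07). Both Tgfbr3 (0.495 RPKM in wild type) and Tgfbr2 (0.281 RPKM in wild type) reached 1 RPKM in the knockout library alone. Tgfbr1 (0.98) and Bmpr2 (0.84) were under 2-fold after span centring.

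**Figure D3:**
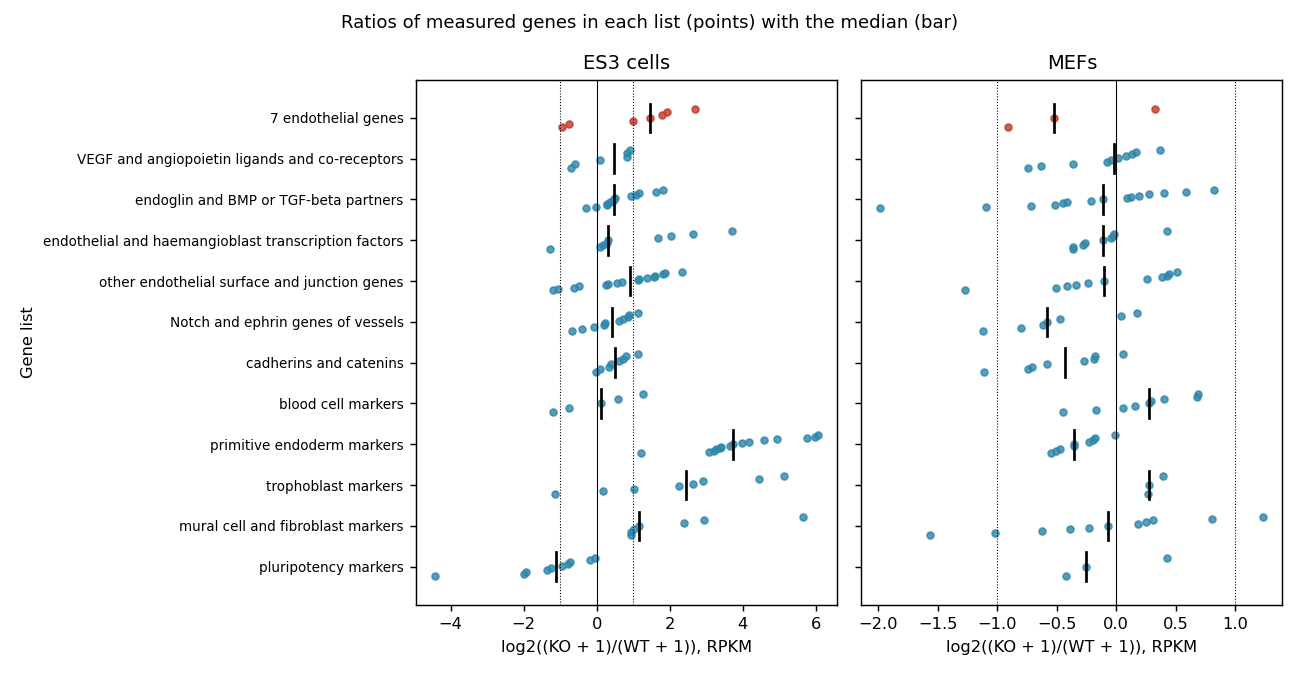
Log2 ratio of knockout to wild-type RPKM, each with 1 RPKM added, of every measured gene (point) in 12 gene lists in ES3 cells (left panel) and MEFs (right panel), on separate horizontal scales; vertical bars are medians of lists with 3 or more measured genes and dotted lines mark 2-fold. In ES3 cells the 7 endothelial genes (red) have a median of 1.47, between the primitive endoderm markers at 3.74 and the pluripotency markers at −1.11, and in MEFs most points lie within 2-fold.

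MEFs expressed a different subset of the 7 genes. The tables were normalised separately, so levels are compared within each table. Flt1 was the most abundant, with 9.50 RPKM in knockout MEFs against 18.7 RPKM in wild-type MEFs. Kdr had 1.34 RPKM in the knockout against 2.37 RPKM in wild type, and Eng had 4.29 against 3.23 RPKM. These 3 were the only genes of the set at 1 RPKM or more. Their log2 ratios were −0.91 for Flt1, −0.53 for Kdr and 0.32 for Eng, none of them past 2-fold, beside 0.981% of 10805 measured MEF genes that were at least 2-fold higher and 4.84% that were at least 2-fold lower. After centring within bins of gene span the ratios were −0.46 for Flt1, −0.28 for Kdr and 0.51 for Eng, none past 2-fold, beside 0.805% of genes at least 2-fold higher and 2.65% lower on that scale.

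The other 4 genes were barely detected in MEFs. Tek had 0.0618 RPKM in knockout and 0.0395 RPKM in wild-type MEFs, Cdh5 had 0.0359 and 0.00460 RPKM, Pecam1 had 0.0111 and 0.0113 RPKM, and Tie1 was listed at 0 in both. Whole reads leave steps at such levels. Of 3458 MEF genes under 0.5 RPKM in both libraries and above 0 in each, 195 had the same knockout to wild-type quotient of 0.977, and in 47.8% the quotient was 0.977 times a ratio of whole numbers up to 30, to a relative tolerance of 1e-05. Read this way, Pecam1 stood at 1 knockout read for each wild-type read, Tek at 8 for each 5 and Cdh5 at 8 for 1, or multiples of these. No change of these 4 genes was readable in MEFs at this depth. The ES3 values did not fall on such steps (3.91% of 2606 low genes), so relative depth was not read from them.

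The pathway lists in MEFs lay mostly within 2-fold, as did most measured MEF genes (0.981% at least 2-fold higher and 4.84% lower). None of 10 measured VEGF and angiopoietin ligands and co-receptors passed it, with Nrp1 at 41.5 RPKM in the knockout against 70.3 RPKM in wild type (−0.74) and Nrp2 at 3.14 against 5.44 RPKM (−0.64). Among 15 measured endoglin partners 2 were lower, Bmpr2 with 2.35 RPKM in the knockout against 12.2 RPKM in wild type (−1.98) and Tgfbr1 with 2.11 against 5.66 RPKM (−1.10, and −0.77 after span centring). None of 9 measured transcription factors passed 2-fold, among them Klf2 (0.43) and Ets1 (−0.36). Of 11 measured surface and junction genes 1 was lower, Ptprb, an endothelial receptor phosphatase, with 0.633 RPKM in the knockout against 2.93 RPKM in wild type (−1.27, and −0.75 after span centring). The largest ratio among the rest was that of Jam3 (0.51).

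The mean profile of the 7 genes over the 4 libraries was nearest, by Euclidean distance of log2(RPKM + 1), to those of Mpzl3 (0.18), 4930452B06Rik (0.20), Gm13238 (0.22), Xpo7 (0.33) and Hps3 (0.33), among genes outside the set. The 7 genes themselves lay farther from their own mean, from 1.88 for Kdr to 4.13 for Flt1, so the mean stands for none of them.

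H3K9me3 regions and KAP1 peaks in ES3 cells were sought within the gene body and 20 kb on either side, on mm9. The knockout list held 37221 H3K9me3 regions and the wild-type list 37002, of which the authors set apart 19057 as wild type only. Of the knockout regions, 18884 overlapped no wild-type region. An H3K9me3 region lay in the window of 4 of the 7 genes in the knockout list (Cdh5, Flt1, Tek and Pecam1) and of 5 in the wild-type list (the same 4 and Tie1), beside 37.5% and 37.6% of all 17818 genes. A wild-type-only region lay near 3 genes (Tie1, Tek and Pecam1), beside 28.2% of all genes, and a region found only in the knockout lay near 3 (Cdh5, Flt1 and Pecam1), beside 26.4%. A KAP1 peak lay near none of the 7 in the list of knockout over input, near 2 (Cdh5 and Pecam1) in that of wild type over input, and near 1 (Pecam1) in that of wild type over knockout, beside 9.23%, 12.8% and 9.51% of all genes. With 7 genes these counts are descriptions, and long genes have larger windows.

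**Figure D4:**
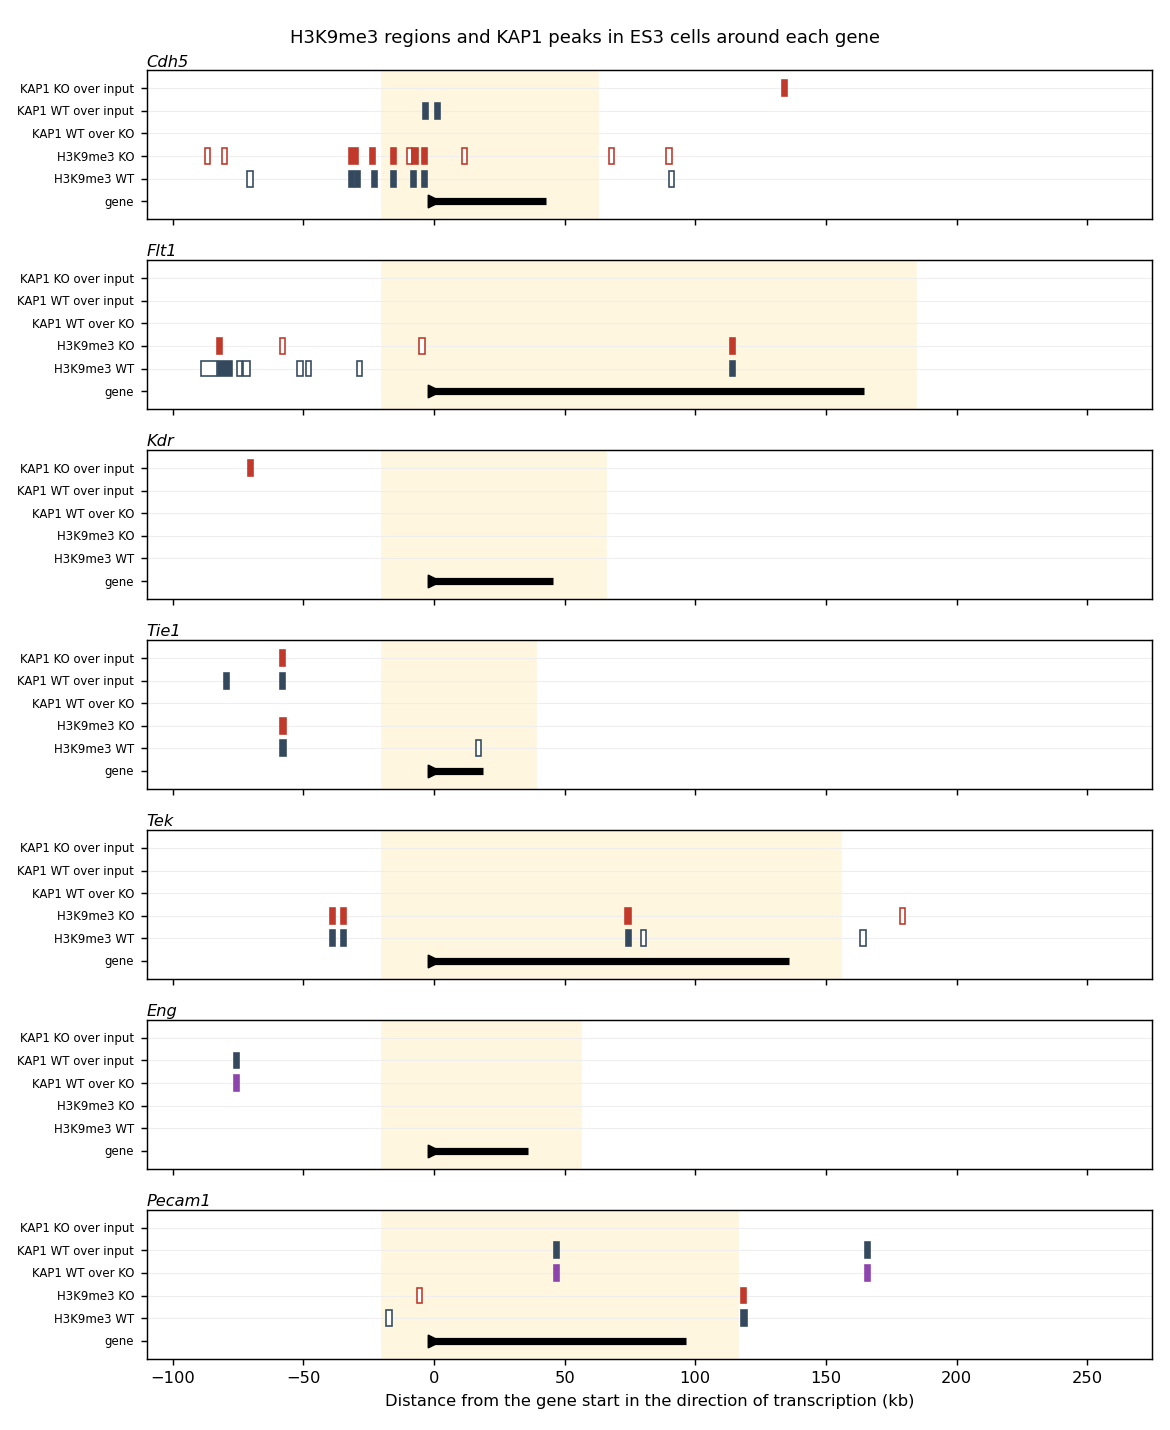
Map of H3K9me3 regions and KAP1 peaks within 100 kb of each gene in ES3 cells, as distance in kb from the gene start in the direction of transcription; red boxes are from knockout, dark blue from wild type and purple from wild type over knockout, open H3K9me3 boxes have no overlapping region in the other genotype, the black bar is the gene, the shaded span its window of 20 kb on either side, and boxes are drawn at least 2 kb wide. Cdh5 has H3K9me3 in both genotypes upstream of its start with a KAP1 peak over it, Tie1 and Tek each hold a wild-type-only region inside the gene, and Kdr and Eng have no H3K9me3 region in view.

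Cdh5 had the most H3K9me3 calls of the 7 genes within 20 kb. Its nearest upstream H3K9me3 region lay at chr8:106621489-106622545 in the knockout and at chr8:106621364-106622546 in wild type, 3.05 kb before the gene in each. A KAP1 peak of the wild-type over input list, chr8:106621712-106622717 with a deposited score of 85.2, overlapped that region. A second peak of that list, chr8:106626758-106627329 with a score of 60.7, lay inside the gene with its near edge 1.16 kb after the start. Neither peak was in the knockout over input list or in the wild type over knockout list. Within 20 kb the knockout list held 5 H3K9me3 regions and the wild-type list 3; all 3 wild-type regions overlapped knockout regions, and the knockout-only regions were chr8:106615938-106616586 upstream and chr8:106637031-106637756 inside the gene. Within 20 kb upstream, each wild-type H3K9me3 call of Cdh5 was thus also made in the knockout. Wild-type-only regions lay farther out, 48.0 kb downstream and 69.5 kb upstream.

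Tie1 showed the opposite picture. A region of 551 bp, chr4:118145322-118145872, lay inside the gene toward its 3′ end, 16.8 kb or more after the start, and was called in wild type only. No H3K9me3 region of the knockout list lay within 50 kb of Tie1. The nearest KAP1 peaks were 57.3 kb upstream, at chr4:118220001-118221392 in knockout over input (score 72.8) and at chr4:118219974-118221674 in wild type over input (score 89.8). An H3K9me3 region was called at the same place in both genotypes. In the wild type over knockout list the nearest peak lay 264.2 kb away. Whether peaks called in knockout chromatin mark KAP1 was not tested.

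Flt1 held an H3K9me3 region deep inside the gene in both genotypes, chr5:148422946-148423747 in the knockout and chr5:148422933-148423912 in wild type, 114 kb after the start. A knockout-only region lay 4.35 kb upstream at chr5:148541936-148542440. The nearest wild-type-only region lay 28.0 kb upstream at chr5:148565635-148566701, outside the 20 kb window, and within 100 kb there were 6 wild-type-only regions, all upstream. The nearest KAP1 peak of the 3 lists lay 200.5 kb away. Kdr had no H3K9me3 region within 100 kb, the nearest being 228.1 kb away in the knockout and 191.0 kb away in wild type. A KAP1 peak of the knockout over input list lay 70.0 kb upstream of Kdr. In wild type over input the nearest peak was 230.6 kb away.

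Tek, whose level was lower in the knockout, also held a wild-type-only H3K9me3 call. A region of 174 bp at chr4:94486177-94486350, inside the gene, was called in wild type only, while another inside the gene was called in both, at chr4:94480021-94480454 in the knockout and chr4:94480012-94480530 in wild type. The nearest KAP1 peak of the 3 lists lay 341.4 kb away. A wild-type-only H3K9me3 call inside the gene was thus seen at Tie1 and at Tek, as it was at 11.9% of all genes. Any relation of these calls to the RNA values was not tested.

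Pecam1 was the one gene of the 7 with a KAP1 peak within 20 kb in both wild-type lists. The peak lay inside the gene at chr11:106564782-106565157, with scores of 73.6 over input and 70.7 over knockout, and the nearest peak of knockout over input lay 367.9 kb away. Upstream, a knockout-only H3K9me3 region stood at chr11:106617223-106617656, 5.28 kb from the gene, and a wild-type-only region at chr11:106628951-106629360, 17.0 kb from it. Eng, the most abundant of the 7 in knockout ES3 cells, had no H3K9me3 region within 100 kb, the nearest being 168.5 kb away in the knockout and 167.3 kb away in wild type. A KAP1 peak of the wild type over input and wild type over knockout lists lay 75.3 kb upstream of Eng, at chr2:32426268-32426856 with a score of 59.7 in each. Scores are the authors' own and their scale is not stated, so they are not compared between lists.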

How the data were processed

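RNA of 4 libraries and 6 lists of ES3 chromatin regions were analysed, out of 18 libraries in the labels; the Rex1GFP, H3K27ac and input libraries were not analysed here. The authors deposited RPKM values per RefSeq transcript, with Bowtie and mm9 named in the submitters' processing notes; the sources used here give no counter and no version. The table's own ratio column, deposited by the authors, equals the quotient of its RPKM columns and was not used further. The ES table heads its columns WT and KO, read here as ES3, since the remaining ES pair is not labelled KO. H3K9me3 regions were deposited without a value, and the authors deposited KAP1 peaks with a score per peak, named as MACS writes them. Read depth is unknown.

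Each symbol was represented by its transcript of highest mean RPKM, and log2((knockout + 1)/(wild type + 1)) was computed. A gene reaching 1 RPKM in at least 1 of the libraries was called measured, and 2-fold was the call. Regions were near when they shared 1 bp with the gene body extended by 20 kb. Calls and windows were tested on simulated data. Python 3.11.15, pandas 2.3.3, numpy 2.4.6 and matplotlib 3.10.9 were used. The 7 genes and the 11 other lists were chosen with earlier results of these data known. The rule for named genes took the 7 genes, Trim28 and the 5 genes of nearest profile. It also took up to 4 genes per list with the largest absolute ES3 ratio and up to 2 with the largest MEF ratio. Calcrl, Vwf, Plvap, Ptprc, Cd68, Cspg4, Klf2 in ES3 cells and the early regulators were picked afterwards.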

Additional observations from a re-analysis of the deposited data

Results flagged for a closer look

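Flt1 and Kdr were measured in both tables with ratios of opposite sign. Flt1 had a log2 ratio of knockout to wild type of 1.94 in ES3 cells and of −0.91 in MEFs, a difference of 2.84. Kdr had 0.99 in ES3 cells and −0.53 in MEFs, a difference of 1.51. Each value comes from 1 library per group, so these differences were not tested.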

How the results depend on the processing

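No paired analysis was possible because each group holds 1 library, and no library could be left out. Of 65 alternative values of the counts, 51 stayed within 1.5 times. Of 75 single ratios past or within 2-fold, 68 kept their call. A changed filter leaves a ratio as it is, and a changed pseudocount or threshold cannot turn its sign. Part of this stability was thus fixed in advance. The 4 genes at least 2-fold higher in knockout ES3 cells were 2 with a pseudocount of 5 RPKM, where Flt1 (0.68) and Tie1 (0.60) dropped under 2-fold, and 2 with a filter at 5 RPKM, which Flt1 and Tie1 do not pass. With a pseudocount of 0.1 RPKM the count was 5, as Kdr (2.76) passed 2-fold. At a 3-fold threshold it was 3, as Eng (1.47) did not reach it. The count of genes at least 2-fold lower, 0, became 1 (Tek) with a pseudocount of 0.1 RPKM and with ratios centred on the median or within 20 bins of gene span. No MEF count moved. Genes near a wild-type H3K9me3 region, 5, were 3 in the gene body (16.9% of all genes) and 3 within 20 kb of the start (24.4%). Genes near a wild-type-only region, 3, were 5 within 50 kb (44.9% of all genes) and 5 within 100 kb (62.8%). Genes near a KAP1 peak of wild type over input, 2, were 4 within 100 kb (33.7%) and 1 by the start (6.94%). For wild type over knockout, 1 became 2 within 100 kb (25.6%) and 0 by the start (4.93%), and for knockout over input 0 became 3 within 100 kb (24.9%).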

Other observations

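Notch and ephrin genes of vessels, and cadherins and catenins, mostly lay within 2-fold in ES3 cells. So did most measured genes, of which 12.5% were at least 2-fold higher and 3.18% lower. Of 10 measured Notch and ephrin genes 1 was at least 2-fold higher, the ligand gene Jag2, with 28.7 RPKM in the knockout against 12.5 RPKM in wild type (log2 ratio 1.14). The ligand of venous EphB4, Efnb2, had 14.7 against 7.53 RPKM (0.88), Jag1 had 6.35 against 3.07 RPKM (0.85) and Hey2 had 1.71 against 0.635 RPKM (0.73). Of 8 measured cadherins and catenins 1 was higher, Cdh2 (N-cadherin), with 3.61 RPKM in the knockout against 1.09 RPKM in wild type (1.14), and 0.91 after span centring. Cdh1 (E-cadherin), the cadherin of ES cells, had 154.3 against 93.4 RPKM (0.72), Ctnnd1 had 15.3 against 8.28 RPKM (0.81) and Jup had 135.8 against 88.5 RPKM (0.61).

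Over all measured MEF genes 0.981% were at least 2-fold higher and 4.84% lower. Of 7 measured Notch and ephrin genes in MEFs 1 was at least 2-fold lower. This was Notch2, with 3.45 RPKM in the knockout against 8.71 RPKM in wild type (−1.12, and −0.61 after span centring). Notch1 had −0.80. Of 8 cadherins and catenins 1 was lower, Cdh11, a cadherin of mesenchyme, with 74.1 against 161.0 RPKM (−1.11, and −0.66 after span centring), and Ctnnd1 had −0.74. The remaining lists had no blood or trophoblast marker past 2-fold in MEFs; the largest were Cd14 (0.69) and Sfpi1 (0.68) among 9 blood markers and Eomes (0.39) and Krt18 (0.27) among 3 trophoblast markers. Of 11 mural cell and fibroblast markers Twist2 was higher (1.24) and 2 were lower, Postn (−1.56) and Cspg4 (−1.02, and −0.84 after span centring). None of 9 primitive endoderm markers, among them Dab2 (−0.55) and Pdgfra (−0.50), and none of 3 pluripotency markers, among them Nanog (0.43) and Klf4 (−0.42), passed 2-fold.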
